A study of Mus musculus with 5 samples.

Results

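The regions described here are 3517 places in mouse embryonic stem cells where a Ring1b peak met a KAP1 peak away from the promoters that the authors tabled. They were the Ring1b peaks narrower than 2000 bp that shared at least 1 bp with a KAP1 peak and lay more than 5000 bp from every deposited promoter region. They made up 26.0% of the 13516 Ring1b peaks (95% exact interval 25.3% to 26.8%) and 29.9% of the 11758 narrow ones. They were chosen by measured width, contact with KAP1 and distance from promoters, so those values are given as descriptions. KAP1 contact was common in the whole Ring1b list, where 76.6% of peaks had it. They are called distal shared peaks below.

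Ring1b (gene Rnf2) is an enzyme of Polycomb repressive complex 1 and places ubiquitin on histone H2A. In embryonic stem cells it is best known at CpG-rich promoters of silent developmental regulators. KAP1 (gene Trim28) is a corepressor that zinc finger proteins of the KRAB family bring to DNA, where it recruits the histone methyltransferase Setdb1 and HP1 proteins. It is best known in these cells for silencing retroelements. 

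Chromatin immunoprecipitation and sequencing gave 5 libraries, 1 per group. KAP1 was mapped in KAP1 fl/fl embryonic stem cells given ethanol vehicle or 4-hydroxytamoxifen, which deletes the floxed gene, and Ring1b was mapped in Ring1b fl/fl cells given either treatment and in KAP1 fl/fl cells given 4-hydroxytamoxifen. Drug or vehicle was given for 24 h, and culture went on for 48 h, with tamoxifen present for the Ring1b fl/fl line and absent for the KAP1 fl/fl line. All cells grew on irradiated mouse embryonic fibroblasts, so feeder chromatin can be present in an amount that was not tested, and were fixed for 10 min. The KAP1 list (82775 peaks) came from vehicle cells called against the deleted cells of that line, as did the Ring1b list. A further list, the knockout list (8928 peaks), held Ring1b from deleted KAP1 fl/fl cells called against deleted Ring1b fl/fl cells, which is another line. KAP1 and Ring1b were thus mapped in different lines, and a shared peak does not show both proteins in the same cell. The peak score, from the authors' peak caller, is -log10 p multiplied by 10 and ranks peaks within 1 list only. No value has a replicate error, and no difference between conditions was tested. The sources used here give no read depth. Intervals reflect the counting of peaks and nothing else.

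Some distal shared peaks lay over an annotated transcript start that has no deposited promoter region within 5000 bp. Of the 3517, 214 (6.08%, 5.32% to 6.93%) lay over at least 1 RefSeq start window, which spans 250 bases before and 50 after a start. The window table used here is not complete, so this is a minimum. The windows show what DNA these peaks covered. The 250 bases before the start are printed for the 3 highest Ring1b scores and then for the 3 highest KAP1 scores among peaks over a window. They are RefSeq sequences of GRCm38, 5′ to 3′ on the transcript's strand, with each CpG in capitals, because CpG density is the feature best known for Ring1b sites.

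Ssh2, chr11:77348030-77348279, plus strand: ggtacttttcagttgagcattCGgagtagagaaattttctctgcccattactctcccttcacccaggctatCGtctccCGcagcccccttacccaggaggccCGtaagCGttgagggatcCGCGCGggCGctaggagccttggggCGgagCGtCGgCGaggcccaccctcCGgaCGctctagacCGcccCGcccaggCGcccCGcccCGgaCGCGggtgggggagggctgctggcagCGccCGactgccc

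Pax2, chr19:44746351-44746600, plus strand: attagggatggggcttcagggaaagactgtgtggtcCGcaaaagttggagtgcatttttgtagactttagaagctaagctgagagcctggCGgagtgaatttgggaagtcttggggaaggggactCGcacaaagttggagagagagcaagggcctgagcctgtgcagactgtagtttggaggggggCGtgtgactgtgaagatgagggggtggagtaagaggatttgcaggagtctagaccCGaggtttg

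Gm30388, chr1:154205445-154205694, minus strand: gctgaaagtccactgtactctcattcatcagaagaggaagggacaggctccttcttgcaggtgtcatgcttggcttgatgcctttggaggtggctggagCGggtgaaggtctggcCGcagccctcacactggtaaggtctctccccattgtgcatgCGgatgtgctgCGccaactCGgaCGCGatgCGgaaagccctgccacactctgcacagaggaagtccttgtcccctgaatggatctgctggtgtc

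2900024J01Rik, chr1:180777711-180777960, plus strand: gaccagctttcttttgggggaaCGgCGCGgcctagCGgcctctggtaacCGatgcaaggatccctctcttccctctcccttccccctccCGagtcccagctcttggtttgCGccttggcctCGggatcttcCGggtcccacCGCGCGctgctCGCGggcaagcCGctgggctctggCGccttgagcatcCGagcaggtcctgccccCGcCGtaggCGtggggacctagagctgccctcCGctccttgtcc

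Gm41231, chr14:100285473-100285722, plus strand: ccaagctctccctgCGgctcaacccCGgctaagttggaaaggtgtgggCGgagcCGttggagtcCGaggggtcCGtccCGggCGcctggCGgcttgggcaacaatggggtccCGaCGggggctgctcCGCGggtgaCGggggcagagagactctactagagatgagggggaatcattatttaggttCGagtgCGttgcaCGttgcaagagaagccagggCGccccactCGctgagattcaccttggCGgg

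LOC115485926, chr14:76739593-76739842, plus strand: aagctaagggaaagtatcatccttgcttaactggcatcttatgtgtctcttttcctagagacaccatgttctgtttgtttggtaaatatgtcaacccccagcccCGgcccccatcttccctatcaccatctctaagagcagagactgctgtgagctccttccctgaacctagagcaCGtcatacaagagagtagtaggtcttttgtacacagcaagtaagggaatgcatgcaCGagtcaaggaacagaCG

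The 6 stretches differed widely in CpG. The one before Ssh2, a phosphatase that acts on the actin regulator cofilin, held 24 CpG, and those before the noncoding RNAs 2900024J01Rik and Gm41231 held 21 and 20. The stretches before Pax2, a regulator of kidney and hindbrain development, and before the noncoding RNA LOC115485926 held 5 and 4. Gm30388 is a noncoding RNA that starts inside Zfp648, a zinc finger gene, and its stretch held 8. The Ring1b scores of the peaks over Gm30388, Ssh2 and Pax2 were 2951, 2028 and 1761. These peaks were picked for their scores and were 1873, 1662 and 1781 bp wide, so the stretches do not give the CpG of whole peaks. Any relation of CpG to score was not tested. The KAP1 scores over 2900024J01Rik, LOC115485926 and Gm41231 were 895, 744 and 736.

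Over whole windows the same spread was seen. The 245 windows under distal shared peaks belonged to 219 genes, of which 112 were noncoding RNA genes and 107 protein-coding. Noncoding RNA genes were thus 51.1% of the genes, beside 41.0% (32 of 78) for distal Ring1b peaks without KAP1, 12.9% for narrow shared peaks near promoters and 35.3% of all genes with a window. The distance rule leaves out starts at deposited promoters, so the contrast with peaks near promoters follows in part from the rule. Of the 107 protein-coding genes, 76 had no symbol among the deposited promoters. No interval was computed for these gene shares. The median CpG count per window was 15, between the 24 of the 3535 windows under shared peaks near promoters and the 7 of all 32851 windows. The ratio of observed to expected CpG was 0.6 or more in 49.8% of the windows (43.4% to 56.2%), against 76.7% near promoters and 35.8% of all windows. Windows under distal Ring1b peaks without KAP1 had a median of 16 CpG, and 59.8% of the 92 (49.0% to 69.9%) reached that ratio. The intervals with and without KAP1 overlap.

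Motifs were counted on both strands of the 300-base windows. The E-box palindrome CACGTG, which bHLH factors such as Myc and Max bind, was found in 14.3% (10.2% to 19.3%) of windows under distal shared peaks. It was found in 10.9% (5.34% to 19.1%) under distal Ring1b peaks without KAP1, 12.9% under shared peaks near promoters and 7.15% of all windows. The hexamer TGCCGC, which the KRAB zinc finger protein Zfp57 recognises when methylated, was found in 18.8% (14.1% to 24.2%), 12%, 22.1% and 11.6% in the same order. The Gata site CTTATCT was found in 1.63% (0.447% to 4.13%), 5.43% (1.79% to 12.2%), 0.934% and 3.04% in that order. Both of the first motifs hold a CpG, and the windows differ in CpG, whose part in these shares was not tested. The REST core, the Esrrb site and the joined octamer and Sox sites were found in 0 of 245 windows, which says only that these letters are not there.

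At most distal shared peaks Ring1b scored below its list's median. KAP1 scored above its own list's median at most of them, as at narrow shared peaks near promoters. The median Ring1b score was 84.5, with quartiles of 62.3 and 161, beside a median of 116 over the whole Ring1b list. That list includes 1758 peaks of 2000 bp or wider, which the width rule leaves out and whose median was 2768. Of the 3517 peaks, 2078 (59.1%) scored below 100, 1166 scored 100 to 500, 174 scored 500 to 1000, and 99 (2.81%) scored 1000 or more. The median of the 1229 distal narrow peaks without KAP1 was 76.9, and that of the 5387 narrow shared peaks near promoters was 115. Median widths in the same order were 414, 377 and 628 bp. The highest KAP1 score met by each distal shared peak had a median of 161, with quartiles of 101 and 265, and 77.3% (75.9% to 78.7%) were above the KAP1 list's own median of 96.2. For narrow shared peaks near promoters the median was 156, and 77.0% (75.9% to 78.2%) were above the list's median.

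Counted from the KAP1 side, the distal shared peaks met 3523 KAP1 peaks, whose median score was 156 and median width 719 bp. KAP1 peaks met by narrow Ring1b peaks near promoters had medians of 148 and 786 bp. The 54370 distal KAP1 peaks that met no Ring1b peak had medians of 87.4 and 462 bp. The quartile range of the met peaks, 97.9 to 257, overlapped that of the others, 64.4 to 137. A wider peak meets another more often by its width alone, and the part of width in this difference was not tested.

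**Figure D1:**
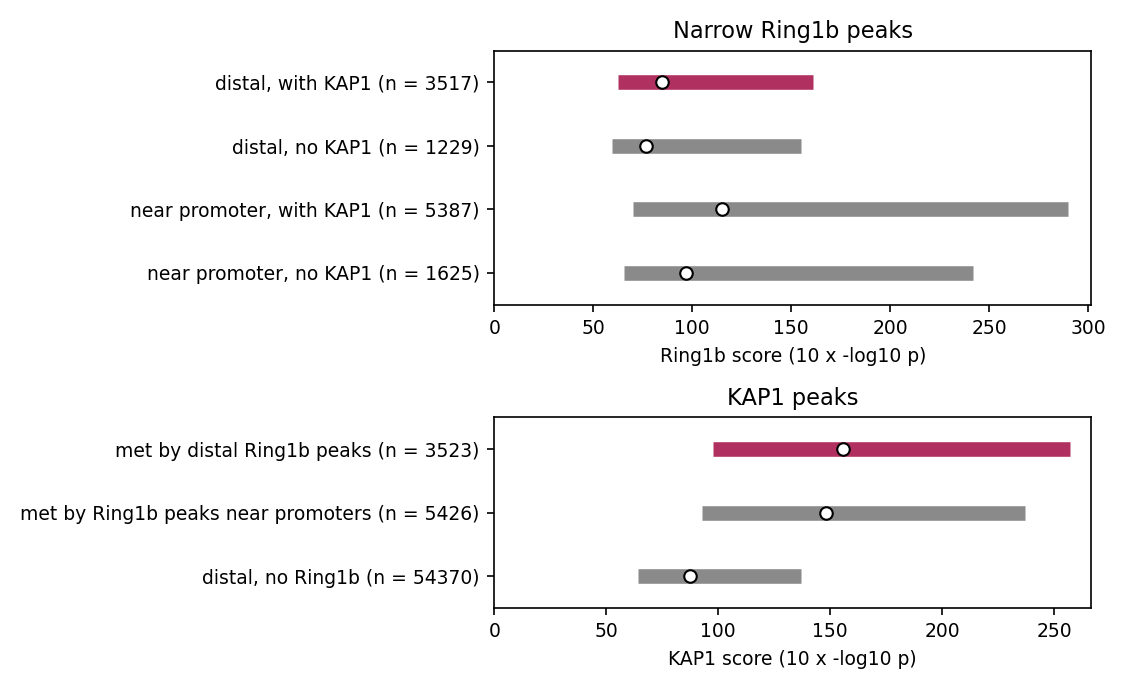
Ring1b scores of narrow Ring1b peaks (top) and KAP1 scores of KAP1 peaks (bottom), as 10 times -log10 p; circles are medians, bars run from the lower to the upper quartile, and n is the number of peaks in 1 list each. KAP1 peaks met by distal Ring1b peaks had a median of 156, against 87.4 for distal KAP1 peaks without Ring1b, while the Ring1b bars of both distal groups nearly coincide.

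The share of peaks that met the other protein rose with the KAP1 score and varied less, in no steady order, with the Ring1b score. The groups below were not matched for peak width, whose part was not tested. Distal KAP1 peaks, 58233 in all, were ranked by KAP1 score and cut into 10 groups of like size. A distal shared peak met 1.8% (1.47% to 2.17%) of the lowest group, 3.55% of the fifth, 10.3% of the ninth and 18.5% (17.5% to 19.5%) of the highest, and 6.01% of all. Each group had a higher share than the one below it. The 4746 distal narrow Ring1b peaks were ranked by Ring1b score in the same way. The share with KAP1 ran from 68% (63.6% to 72.2%) in the second group to 79.9% (76.0% to 83.4%) in the sixth. These 2 intervals do not overlap, but the 10 groups showed no steady order. The share was 74.1% (72.8% to 75.3%) over all. It was 76.8% (75.8% to 77.8%) in the 7012 narrow Ring1b peaks near promoters. Within the distal shared peaks the Ring1b and KAP1 scores were nearly unrelated across peaks (Spearman's rho -0.08, n = 3517), as near promoters (-0.10, n = 5387). Peaks of 1 library share its depth and are not replicates, so no p is given.

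**Figure D2:**
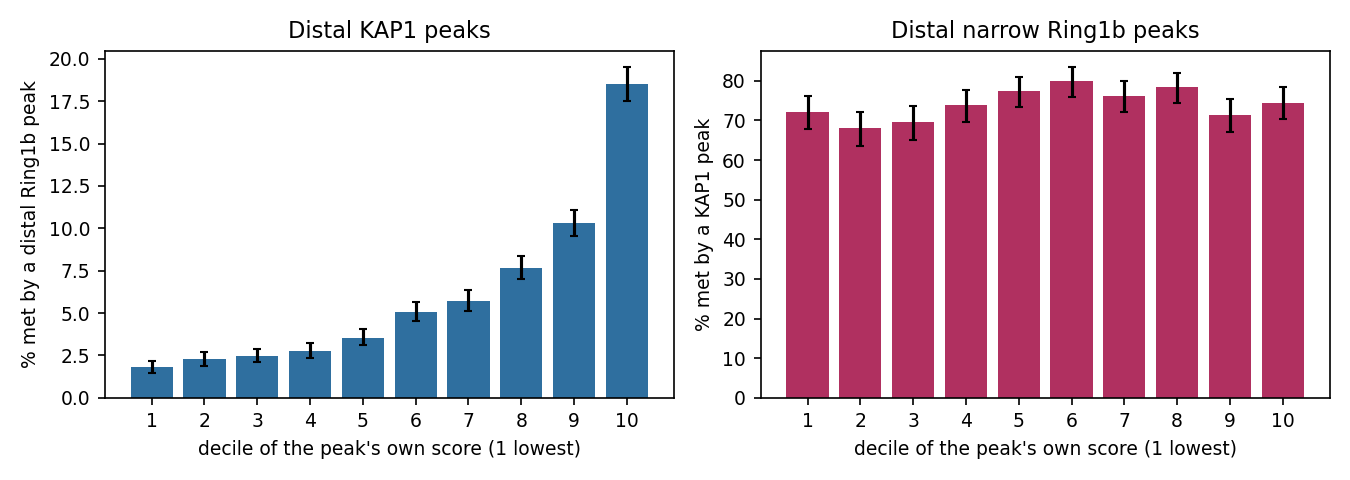
Share of distal KAP1 peaks met by a distal narrow Ring1b peak, in 10 groups by KAP1 score (left), and share of distal narrow Ring1b peaks met by KAP1, in 10 groups by Ring1b score (right); bars are percentages of peaks, lines are 95% exact intervals, and the axes differ in scale. The left bars rise from 1.8% to 18.5%, and the right bars stay between 68% and 79.9%.

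The pair of peaks usually lay close together, with the Ring1b peak inside the KAP1 peak. Of the distal shared peaks, 2274 (64.7%, 63.1% to 66.2%) were enclosed by a KAP1 peak, 415 (11.8%) enclosed one, and 828 (23.5%) crossed its border. Near promoters 45.4% (44.1% to 46.8%) were enclosed. The share moved with width and score: it was 73.6% (72.0% to 75.2%) among distal shared peaks narrower than 1000 bp and 37.2% (34.7% to 39.7%) among those with a Ring1b score of 100 or more. The distance between the nearest summits, the points of highest pileup, had a median of 78 bp and quartiles of 27 and 226 bp, beside a median of 111 bp near promoters. Summits lay within 100 bp of each other in 56.7% (55.0% to 58.3%), against 48.3% near promoters. With fragments of about 200 bp, summits closer than that cannot be resolved into separate sites. A single KAP1 peak was met by 3413 of the peaks, 2 by 101 and 3 by 3, and 218 had less than 50% of their length under KAP1.

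**Figure D3:**
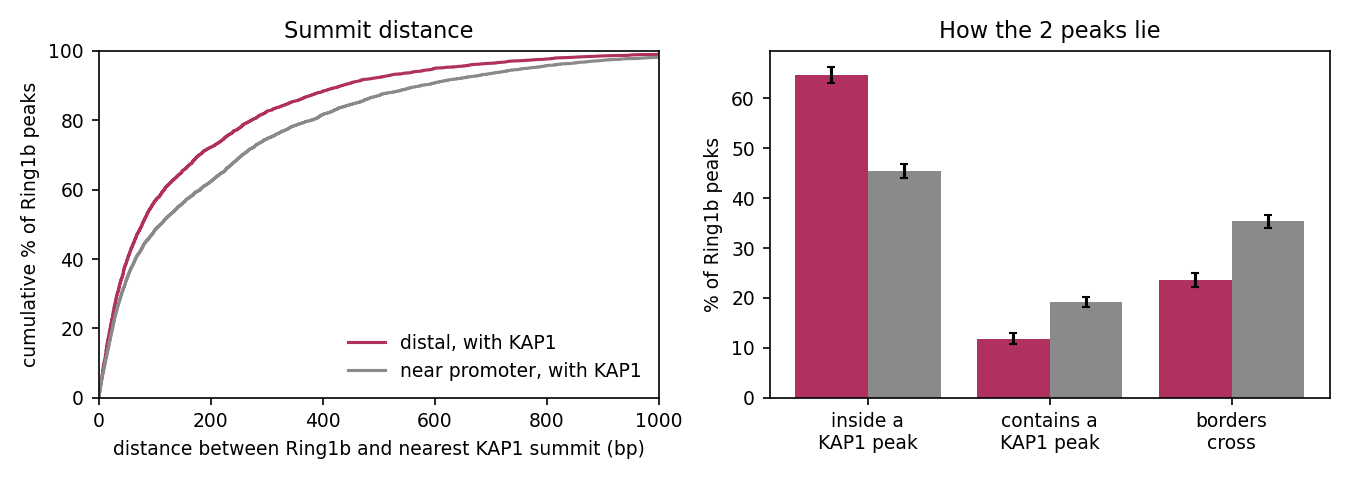
Left, cumulative percentage of Ring1b peaks by distance in bp to the nearest KAP1 summit, for distal shared peaks (red, n = 3517) and narrow shared peaks near promoters (grey, n = 5387), drawn to 1000 bp. Right, percentage of each group whose Ring1b peak lay inside a KAP1 peak, contained one or crossed its border, with 95% exact intervals; 64.7% of the distal and 45.4% of the promoter peaks lay inside.

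Of the 10 distal shared peaks with the highest Ring1b scores, 6 overlapped a protein-coding gene and 4 lay between genes. The top score was 3100, a value that 732 peaks of the Ring1b list share. One such peak lay inside Zfhx3, a homeobox transcription factor gene (chr8:108955412-108957231, KAP1 score 367). The other lay between genes, 6962 bp from Ankrd60 (chr2:173585236-173587013), with a KAP1 score of 107. Next came a peak inside Zfp648 (chr1:154204144-154206016), with scores of 2951 for Ring1b and 355 for KAP1. Peaks over Kcnj9, Kcnk12 and Iqsec3, which encode potassium channel subunits and a synaptic exchange factor, had Ring1b scores of 2645, 2534 and 2642. Peaks 33628 bp from Foxd1 and 62164 bp from Foxd2, both forkhead transcription factor genes, had Ring1b scores of 2599 and 2576 with KAP1 scores of 72.0 and 72.9. The remaining members of the top 10 lay over Gal3st1, a sulfotransferase gene of myelin lipids, and 13934 bp from Mrpl39, a mitochondrial ribosome gene, with Ring1b scores of 2669 and 2720. All 10 were wider than 1000 bp, from 1112 to 1969 bp, against a median of 414 bp for the whole group. KAP1 covered 57.5% to 95.2% of the 6 over genes. Between genes it covered 22.4% of the peak near Ankrd60, where the summits were 1088 bp apart. The peaks near Foxd1, Mrpl39 and Foxd2 were covered over 22.4%, 27.3% and 46.1%, with summits 4, 74 and 68 bp apart.

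The distal shared peaks with the highest KAP1 scores were another set, and all 10 lay on chromosome 1. High KAP1 scores were common there in the whole KAP1 list, which had 5 of its top 10 peaks on that chromosome. Of the top 100, it held 46 in the KAP1 list and 46 among the distal shared peaks. A single KAP1 peak with a score of 1516, near Gli2, a transcription factor gene of Hedgehog signalling, met 2 of the 10, 20594 and 21055 bp from the gene. Their Ring1b scores were 53.5 and 338. A peak 4309 bp from B3gnt7, a glycosyltransferase gene, had 1313 for KAP1 and 50.6 for Ring1b. Inhbb, which encodes the beta B subunit of activin, was the nearest gene to 2 more, at 16176 and 66346 bp, with KAP1 scores of 1226 and 1148 and Ring1b scores of 302 and 285. Peaks near Ptma (prothymosin alpha), in Gpa33 and in Ppp1r12b had KAP1 scores of 1188, 1116 and 1109 and Ring1b scores of 82.6, 60.2 and 90.2. The last of the 10 lay in Fbxo36 and 19940 bp from Gm38664, with KAP1 scores of 1044 and 1037. None of these 10 was among the 10 highest Ring1b scores. All were covered by KAP1 over their whole length, but the summits did not always lie close together. They were 2281 bp apart at the peak near B3gnt7 and 1387 bp apart in Gpa33. At the farther of the 2 Inhbb peaks and of the 2 Gli2 peaks they were 1089 and 1044 bp apart. At the rest they were 31 to 499 bp apart.

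Chromosome 1 stood apart in the KAP1 list and held more distal shared peaks than any other chromosome. It held 491 of the 3517 (14%, 12.8% to 15.2%), beside 9.27% of the other Ring1b peaks, 9.74% of distal KAP1 peaks and 6.06% of deposited promoters. That came to 2.51 per Mb, against 0.724 to 1.93 on chromosomes 2 to 19. The KAP1 score at its distal shared peaks had a median of 257, against chromosome medians of 127 to 186 on chromosomes 2 to 19 and 152 over those chromosomes together. The Ring1b score had a median of 88.1 there, within the range of 77.8 to 102 on those chromosomes. Shared peaks near promoters had KAP1 medians of 264 on chromosome 1 and 150 on chromosomes 2 to 19. Distal KAP1 peaks without Ring1b had 92.3 and 87.4. Among distal KAP1 peaks that scored 400 or more, a distal shared peak met 110 of 245 on chromosome 1 (44.9%) and 212 of 913 on chromosomes 2 to 19 (23.2%). For scores of 50 to 100 the shares were 2.40% and 2.83%. The 10 Mb from 130 to 140 Mb held 112 of the 491. All KAP1 peaks of chromosome 1 had a median score of 106, against chromosome medians of 90.7 to 98.8 on chromosomes 2 to 19. The sources used here do not give the copy number of chromosome 1 in the KAP1 fl/fl line, and its part in these scores and in the top 10 was not tested. Without chromosome 1 the median KAP1 score of all distal shared peaks was 151.

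Chromosome X went the other way. It held 22 distal shared peaks and 66 distal narrow Ring1b peaks without KAP1, so 25% (16.4% to 35.4%) met KAP1, against 74.4% (73.0% to 75.7%) on chromosomes 2 to 19. Near promoters 22.0% (16.0% to 29.1%) met it. KAP1 peaks were sparse on the whole chromosome, at 5.16 per Mb against 17.2 to 49.4.

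**Figure D4:**
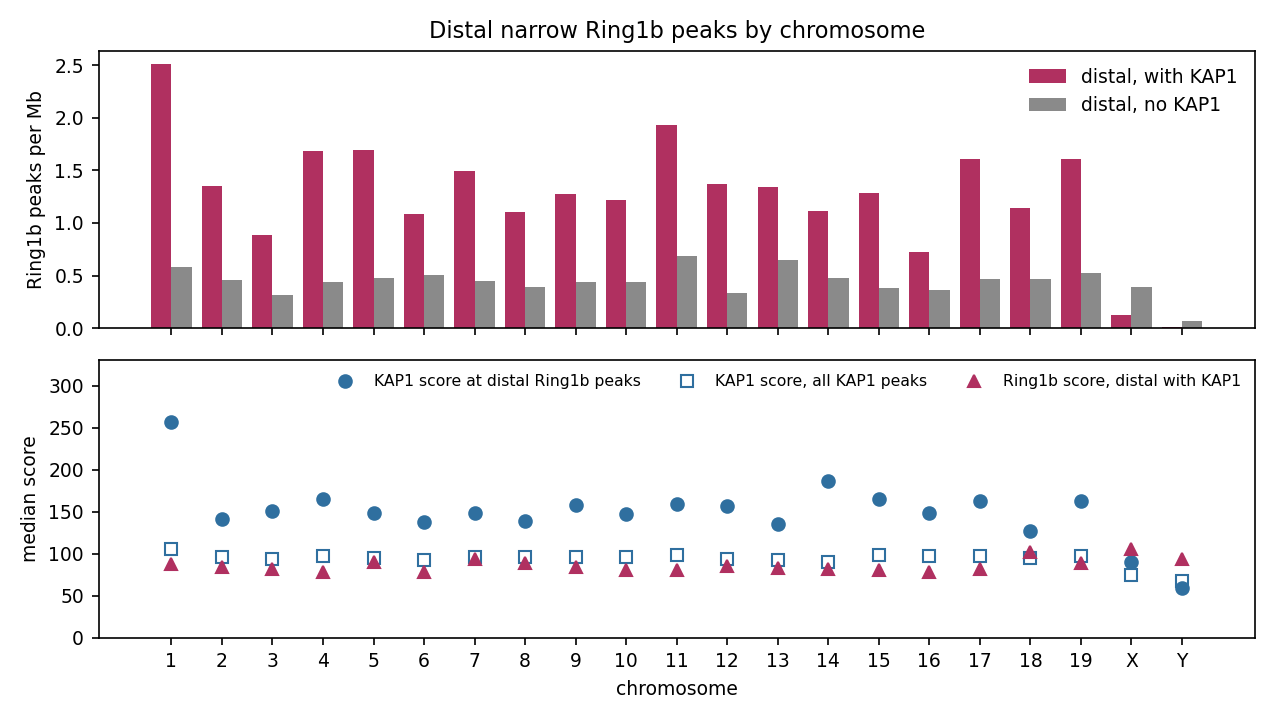
Top, distal narrow Ring1b peaks per Mb by chromosome, with KAP1 (red) and without (grey). Bottom, median KAP1 score at distal shared peaks (filled circles), median score of all KAP1 peaks (open squares) and median Ring1b score of distal shared peaks (triangles). Chromosome 1 has 2.51 shared peaks per Mb and a KAP1 median of 257, and the medians of X and Y rest on 22 and 1 peaks.

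Distal shared peaks lay between genes about as often as inside them. Of the 3517, 1722 (49.0%, 47.3% to 50.6%) overlapped a protein-coding gene, against 41.7% (38.9% to 44.5%) of distal peaks without KAP1 and 87.4% of shared peaks near promoters. With RefSeq genes of every kind the share was 63.5%. The nearest deposited promoter was at a median of 34464 bp, with quartiles of 14873 and 81805 bp, and 721 (20.5%) were more than 100 kb away. The deposited tables do not list promoters bound by neither protein, and 372 (10.6%) lay within 1000 bp of an end of some protein-coding gene. The nearest deposited promoter was in the shared class for 52.2%, KAP1 only for 42.3% and Ring1b only for 5.43% (4.71% to 6.23%). For distal peaks without KAP1 these were 50.3%, 35.0% and 14.7% (12.8% to 16.8%), and for distal KAP1 peaks without Ring1b they were 47.1%, 48.1% and 4.84%. All deposited promoters divided into 40.2%, 53.1% and 6.78%, so the Ring1b only share at distal shared peaks was near that of the tables and of other distal KAP1 peaks. A Ring1b peak of 2000 bp or wider lay within 10 kb of 4.72% (4.04% to 5.47%) of the shared peaks and of 15.1% (13.1% to 17.2%) of those without KAP1. Pseudogenes lay under 3.55% (2.97% to 4.22%), against 4.88% of the peaks without KAP1 and 0.260% of shared peaks near promoters. The promoter group was chosen for lying near promoters, so its shares over genes and pseudogenes follow in part from that choice.

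Many distal shared peaks came in runs. With gaps of at most 50 kb, 1621 of 3516 placed peaks (46.1%) lay in 626 runs, of which 78 held 4 or more. With gaps of 10 kb the share was 24.4%, and with 100 kb 59.0%. Without chromosome 1 it was 42.5% at 50 kb. The share in runs was not computed for other groups of peaks, so runs are not shown to be particular to the distal shared peaks. Among the longest were 3 runs of 9 peaks. One (chr1:74036610-74111673) lay over Tns1, which links integrins to actin, with Ring1b scores of 60.2 to 517 and KAP1 scores of 59.5 to 700. Another (chr1:135085284-135251067) lay over Arl8a, Gpr37l1, Lgr6 and Ptpn7. Lgr6 encodes a receptor for R-spondins in Wnt signalling.

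The remaining run (chr3:96332640-96404873) held no protein-coding gene but 9 tRNA genes, 2 U1 snRNA genes and 4 noncoding RNA genes. Its Ring1b scores were 98.1, 181, 137, 96.2, 89, 63.7, 136, 401 and 151 along the chromosome, and the matching KAP1 scores were 51, 136, 99.6, 116, 88.1, 105, 140, 209 and 105. Both scores were highest at the same peak, the eighth. Of its 9 peaks, 4 lay over a tRNA gene. In the whole genome 12 distal shared peaks lay over 12 of the 408 nuclear tRNA genes listed, 6 of them on chromosome 3. That was 0.341% of the peaks (0.176% to 0.595%), beside 0.244% (0.0504% to 0.712%) of distal narrow peaks without KAP1. Near promoters it was 0.167% (0.0764% to 0.317%) of narrow shared peaks. These intervals overlap. The highest Ring1b scores among the 12 were 1254 over n-TNgtt9 and 930 over n-TIaat9, named for asparagine and isoleucine tRNAs. All KAP1 peaks together lay over 172 tRNA genes, all Ring1b peaks over 44, and both over 36. These genes have near-identical copies, to which short reads can be assigned wrongly.

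By gene, 1354 of 21900 protein-coding genes (6.18%) overlapped a distal shared peak, and 2486 (11.4%) did so or were the nearest gene to one. Of the 1354, 1078 held 1 and 194 held 2. Nav1, a neuron navigator gene on chromosome 1, held 11, with Ring1b scores of 55.0 to 230 and KAP1 scores of 62.3 to 521. Tns1 held 10, and Nmnat2, an NAD-synthesis gene that maintains axons, held 8. The next most were the same 7 peaks in Gm37013, Gm38666 and Gm38667, overlapping gene models on chromosome 18. Zfhx3 held 6, which ran from 77.1 to 3100 in Ring1b score. Nav1 spans 253771 bp and held 57 KAP1 peaks, and Zfhx3 spans 682326 bp and held 32.

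The deposited whole-gene tables place genes by any binding within the gene. Distal shared peaks lay in 1093 tabled genes, and by construction all of these were in the shared class, of which they were 18% (17.1% to 19%). At 583 of the 1093 (53.3%, 50.3% to 56.3%) no deposited promoter carried Ring1b. Of the 583, 285 had a KAP1 only promoter and 298 had none in the tables. At 463 genes (42.4%, 39.4% to 45.4%) distal shared peaks were the only Ring1b peaks in the gene. The shared class over whole genes therefore includes genes whose Ring1b lay only in these mostly low-scoring peaks.

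The 12 gene lists were described by how many genes overlapped a distal shared peak, beside 6.18% of all protein-coding genes, or overlapped or were nearest to one, beside 11.4%. Of the pluripotency-associated genes, 6 of 30 overlapped one (20%), and 13 did so or were nearest (43.3%). The 6 were Esrrb, Klf5, Nr5a2, Tbx3, Tfcp2l1 and Zscan10, most of them transcription factors that maintain the naive state. The 43 peaks of this list had a median Ring1b score of 77.8 and a median KAP1 score of 181, beside 84.5 and 161 for all distal shared peaks. The highest was 118261 bp from Klf4, with a Ring1b score of 1198 and a KAP1 score of 166. Peaks 90945 and 52982 bp from Nr5a2 scored 315 and 171 for Ring1b, and one 8948 bp from Prdm14 scored 157.

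Lineage regulators are given by both counts. Many of these genes are only a few kb long, and the distance rule removes peaks within 5000 bp of a deposited promoter, so a distal shared peak can hardly fall inside them, and the balance between the counts is not a finding. Of the neuroectoderm regulators, 3 of 30 overlapped one, and 15 (50%) did so or were nearest. Their 25 peaks had a median Ring1b score of 171. The peak 6321 bp from Lhx5, a LIM homeobox gene of the forebrain, had a Ring1b score of 2218 and a KAP1 score of 156. It lay 5321 bp from the nearest deposited promoter, and several other peaks named here were as near the distance limit: those of Tbx20 (5133 bp), Wnt5a (5281 bp), Cdx2 (5437 bp) and Neurog2 (5601 bp) and the lowest-scoring of the 3 named in Tfap2a (5537 bp). Peaks near En2, Neurog2 and Gbx2 scored 622, 414 and 405 for Ring1b. Of the mesoderm regulators, 2 of 30 overlapped one and 11 did so or were nearest. Their 15 peaks had a median Ring1b score of 189 and a median KAP1 score of 107. The highest were near Evx1 (1018), Tbx20 (979) and Hand2 (651). One lay 82 bp from the nearer end of Isl1, a factor of heart and motor neuron precursors, and 10501 bp from the nearest deposited promoter. Its Ring1b score was 396. Of the endoderm regulators, 1 of 20 overlapped one and 4 did so or were nearest, with peaks near Foxa2 (Ring1b score 314), Sox17 (209) and Sox9 (129). Of the trophectoderm regulators, 2 of 18 overlapped one and 8 did so or were nearest. Of that list's 15 peaks, 3 over Tfap2a scored 758, 613 and 368 for Ring1b. One 87 bp from the nearer end of Cdx2, and 5437 bp from the nearest deposited promoter, scored 401. Of the Hox cluster genes, 0 of 39 overlapped a distal shared peak and 4 were nearest to one. Of those, the peak 12566 bp from Hoxa13 had a Ring1b score of 2084 and a KAP1 score of 54.7, near the minimum of 50.0 in the KAP1 list. KAP1 covered 28.5% of it and 23.2% of the Lhx5 peak, with summits 659 and 1165 bp apart. Among the peaks named in this paragraph, coverage ran from 20.1% (Neurog2) to 100% (Sox9).

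Signalling ligands had 7 of 40 genes with a peak (17.5%), of which 5 were Wnt genes, and 9 did so or were nearest. Wnt10a, Wnt8b and Wnt5a held peaks with Ring1b scores of 1941, 1513 and 1437 and KAP1 scores of 265, 109 and 51.9. KAP1 covered 57.2%, 31.1% and 33.7% of these Wnt peaks. Gdf6, a BMP family ligand, held a peak with a Ring1b score of 692. Among receptors, 3 of 31 genes overlapped one and 6 did so or were nearest. The peak over Bmpr1b, a BMP receptor gene, scored 1319 and the next, near Notch3, scored 146. Polycomb subunit genes overlapped a peak at 7 of 32 (21.9%): Cbx7, Kdm2b, Mga, Pcgf5, Phc2, Phf19 and Scmh1. With nearest genes the count was 11 (34.4%). The peak at one end of Mga scored 1050 for Ring1b and 270 for KAP1, and those in Pcgf5 and Kdm2b scored 355 and 231. Of the KAP1 pathway genes, 1 of 23 overlapped one, the DNA methyltransferase gene Dnmt3a, with a Ring1b score of 87.7. With nearest genes the count was 5 (21.7%), the others being Atf7ip, Cbx5, Hdac2 and Smarcad1. Germline genes had 0 of 25, even counting nearest genes. Of the fibroblast markers, included because of the feeder layer, 1 of 20 overlapped one, Col1a1, with a Ring1b score of 160, and the count with nearest genes was also 1.

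**Figure D5:**
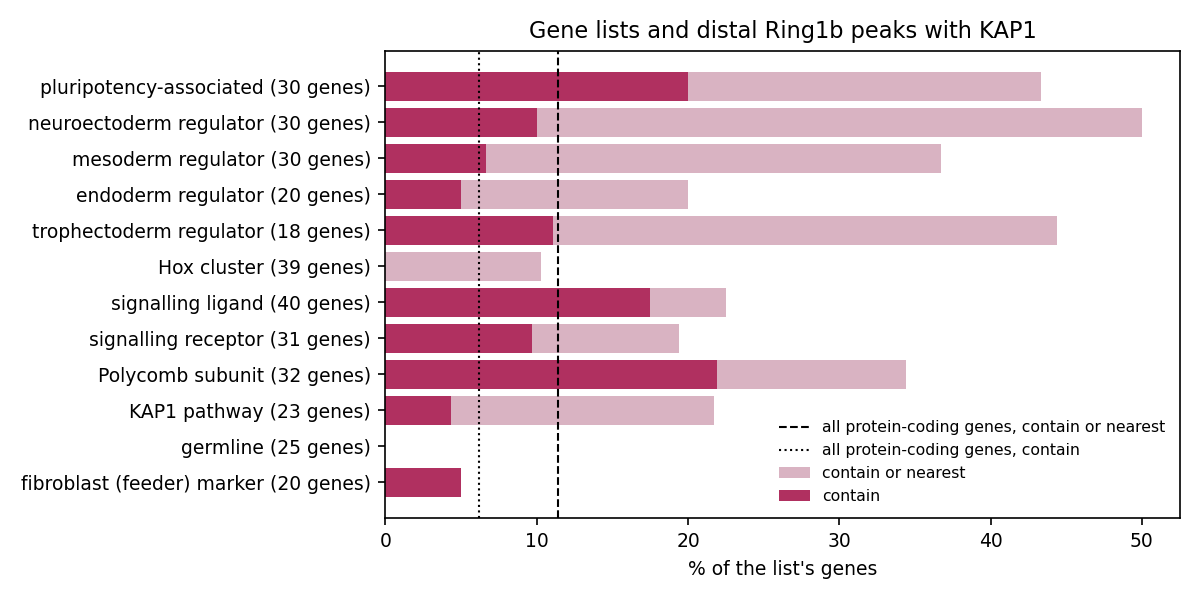
Percentage of each gene list that overlapped a distal shared peak (dark bars) or overlapped or was the nearest gene to one (light bars); the dotted and dashed lines are the same shares over all 21900 protein-coding genes, 6.18% and 11.4%. Lists hold 18 to 40 genes, so 1 gene moves a bar by several percentage points; neuroectoderm regulators reach 50% and germline genes 0.

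In KAP1-deleted cells almost none of the Ring1b peaks of the whole list were called, and the distal shared peaks were like the rest in this. The knockout list met 21 of the 3517 (0.597%, 0.370% to 0.911%), beside 44 of all 13516 Ring1b peaks (0.326%). It met 0 of 1229 distal peaks without KAP1, for which the exact interval reaches 0.300%, and 21 of 5387 shared peaks near promoters (0.390%, 0.241% to 0.595%). The knockout list was called in 1 line against another, unlike the Ring1b list, so a missing call does not show that Ring1b left. The distal and promoter intervals overlap.

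The 21 peaks were not those with the most Ring1b. Their Ring1b scores ran from 51.9 to 300 with a median of 81.3, and their KAP1 scores from 58.6 to 595 with a median of 281. At the same places the knockout-list scores ran from 50.1 to 225 with a median of 58.4, beside a median of 58.9 over that whole list. The highest Ring1b score was at a peak 60154 bp from Zfp644 (chr5:106756989-106758431, Ring1b 300, KAP1 139). It was followed by peaks in Asb18 (149 and 467), 109615 bp from Inhbb (115 and 544), in Fat1, an atypical cadherin gene (112 and 378), and 23593 bp from Elovl6, a fatty acid elongase gene (111 and 339). The others lay over Ahi1, Anpep, Chst8, Ank3, Wdr66 and Srrm4, and nearest to Dlx2, Irf2bp2, Matn1, 9530057J20Rik, Castor2, Bcas1, Clic4, Nufip1, Bdh1 and Anapc16. In all, 8 overlapped a protein-coding gene, and 3 lay on chromosome 8 and 2 on chromosome 1.

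Values near the limits of the rule were as follows. Just inside the width limit lay a peak over Cntfr (1987 bp, Ring1b score 439) and one 6836 bp from Sp9 (1994 bp, 662). Just outside lay peaks of 2004 and 2009 bp, with Ring1b scores of 2660 and 1222. Just inside the distance limit lay peaks at 5004 bp in Tpgs1 (Ring1b score 69.8) and at 5014 bp near Utp14a (94.7), and just outside it at 4995 and 4963 bp (1444 and 89.3).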

How the data were processed

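Per the submitters' processing notes, the tools included Bowtie2 and MACS 1.4.2, beside CASAVA 1.8.2 and bedtools 2.16.2, on mm10 (GRCm38). Per the file headers, the authors called each of 3 peak lists on 1 library against another, and the deposited score of a peak is 10 times its -log10 p. Scores in the deposited gene tables are in the same unit. The authors' promoter tables hold 13039 regions.

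Peaks were intersected (1 bp or more) and summarised by counts, medians, quartiles and exact (Clopper-Pearson) 95% intervals, with Python 3.11.15, pandas 2.3.3 and scipy 1.17.1. Overlap and distance code was tested on simulated intervals. Gene names, coordinates and start windows came from RefSeq tables of GRCm38.p6, which give no exons, so introns and exons were not separated. No genome sequence was used, so sequence was read from start windows only. A peak that overlapped several genes took the shortest, and any overlap counted. Distances to a gene run to its nearer end, which need not be its start.

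Groups followed the library titles. The members and the gene lists were chosen with earlier results of these data known. Named peaks are the 10 highest by each score, all those in the knockout list, up to 4 per gene list by Ring1b score, those nearest each limit, the 5 genes with most peaks (the fourth to sixth tie) and the 3 runs with most. The tRNA genes, Zfhx3 as a gene and the start windows were named after their values were seen. With 1 library per group no test was made. Alternatives changed the overlap, distance, width, scores, chromosomes and run gaps.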

Additional observations from a re-analysis of the deposited data

How the results depend on the processing

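Of 79 recomputed values, 51 stayed within 1.5 times the count or within the 95% interval of the reported share or median, and 28 did not. With at least 50% of the Ring1b peak under 1 KAP1 peak, the share with KAP1 was 68.6%, the median Ring1b score 81.3 and the median KAP1 score 170, and counting KAP1 within 1000 bp gave a share of 80.7%. Keeping also 5000 bp from both ends of every RefSeq gene left 1877 peaks, with medians of 76.3 for Ring1b and 170 for KAP1 and 72.0% enclosed. Peaks narrower than 1000 bp had medians of 76.2 and 170, 73.6% enclosed and 47.3% in protein-coding genes. With no limit on width the Ring1b median was 89 and 61.1% were enclosed. A Ring1b score of 100 or more left 1439 peaks, with medians of 190 and 150, 37.2% enclosed and 52.6% in genes. A KAP1 score of 100 or more gave a share of 56.1%, a KAP1 median of 202 and 71.1% enclosed. A score limit raises its own median by construction. Without chromosome 1, an alternative chosen after seeing the data, the KAP1 median was 151, 62.4% were enclosed and 42.5% lay in runs. Gaps of 10 and 100 kb put 24.4% and 59.0% in runs. Over the 12 lists, 33 genes overlapped a distal shared peak, against 87 with nearest genes, counting a gene in each of its lists. The share in the knockout list stayed within its interval under every alternative run. Sequence windows of 200 bp and of whole peaks were not run, since no genome sequence was used. No paired analysis was possible because each group has 1 library.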
